A study of Mus musculus with 8 samples.

Results

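The 42 interferon-stimulated genes described here are a named set of antiviral genes (sensors, transcription factors, effectors and GTPases), listed by gene symbol, with earlier results of these data known. All 42 were present among the 24451 genes of the normalised count table, and all 42 were among the 15352 genes tested. The study measured liver mRNA by bulk RNA sequencing in mice in which the BRCA1-associated protein gene Brap was removed from hepatocytes. Livers of 4 Brap LKO mice (Brap fl/fl; Alb-Cre+) were compared with livers of 4 Brap F/F mice (Brap fl/fl; Cre-), so the floxed alleles were common to both groups and the Cre transgene was carried by the knockout group alone. Cre was driven by the albumin promoter, which is active in hepatocytes. Whether Brap was also removed from other cells of the liver was not tested. All 8 mice were male C57BL/6 animals of 18 weeks, fasted for 6 h before the left lobe was taken, and each library came from 1 animal.

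Type I interferons are secreted when a cell detects foreign or misplaced nucleic acid. They act through JAK kinases on STAT proteins, and a complex that contains STAT2 and IRF9 then binds the interferon-stimulated response element (ISRE) in front of target genes, while the gamma-activated sequence (GAS) serves the response to interferon gamma. Many target genes are themselves sensors and signalling proteins of the same pathway, and hepatocytes as well as liver macrophages can express them.

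No interferon-stimulated gene passed the threshold of the main test (limma) between Brap LKO and Brap F/F livers, while DESeq2 called 6. The group means lay higher in Brap LKO for nearly the whole set. With limma on log2(normalised count + 1), 0 of the 42 genes had an adjusted p under 0.05 in either direction, against 0.769% of all genes tested (0.664% higher and 0.104% lower in Brap LKO). Rsad2 was the 1 gene with an adjusted p under 0.1, against 1.84% of all genes in that direction. At an unadjusted p under 0.05, 19 genes were higher in Brap LKO and 0 were lower, against 9.23% and 6.59% of all genes. The fitted log2 fold change (Brap LKO over Brap F/F) was above 0 in 41 of the 42 genes, against 48% of all genes, and in 39 to 42 of them under the alternative settings. Its median was 0.56 over the set and -0.01 over all genes, and it was above 0.5 for 24 of the 42 genes, against 10.9% of all genes. It ran from -0.16 for Gbp2 to 1.72 for Oas1g. edgeR called 0 of the 42 genes, against 0.703% of all genes as higher in Brap LKO, with 18 higher and 0 lower at an unadjusted p under 0.05. DESeq2 called 6 of the 42 genes as higher in Brap LKO (Ifi44, Ifit2, Oas1a, Oas1g, Rsad2 and Trim30a), against 2.73% of the genes it tested in that direction. In bulk liver, a change in the number of cells of one type and a change in RNA per cell cannot be told apart.

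The 4 control livers lay far apart from one another. Brap F/F replicates 2 and 3 were the 2 lowest of the 8 livers for 39 of the 42 genes, against 11.8% of all genes, a pattern noticed after the values were seen. Brap F/F replicate 1 reached or passed the lowest Brap LKO liver for 28 of the 42 genes and Brap F/F replicate 4 did so for 23, against 74.9% and 75.3% of all genes. For Brap F/F replicates 2 and 3 this held for 1 gene each, Gbp2, against 71.2% and 72.5% of all genes. The median log2 fold change was 0.38 without Brap F/F replicate 2 and 0.34 without replicate 3. It was 0.72 without Brap F/F replicate 1, 0.71 without replicate 4 and 0.43 without Brap LKO replicate 4.

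**Figure D1:**
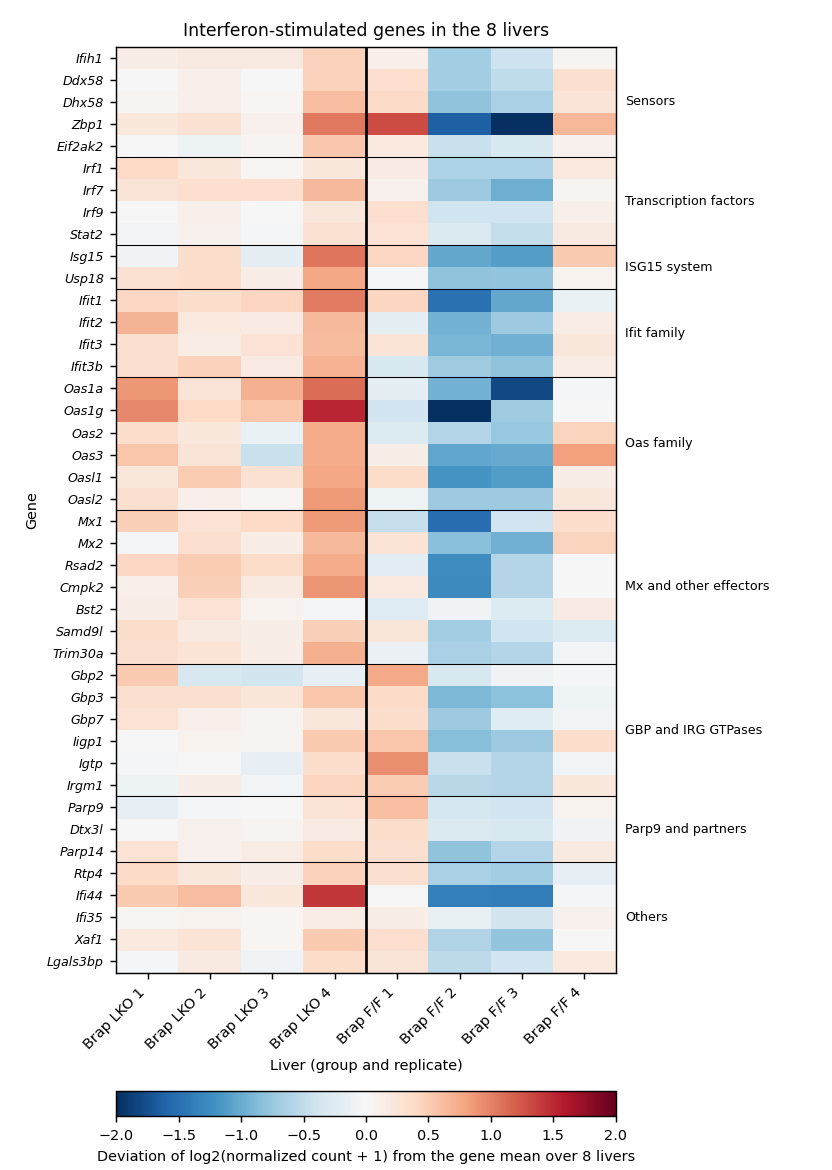
Deviation of log2(normalised count + 1) from each gene's mean over the 8 livers, for the 42 interferon-stimulated genes (rows, by role) in Brap LKO replicates 1 to 4 and Brap F/F replicates 1 to 4 (columns). Blue cells mark low values, and the columns of Brap F/F replicates 2 and 3 are the lowest pair for 39 of 42 genes.

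In 10 of the 42 genes every Brap LKO liver was above every Brap F/F liver, against 5.48% of all genes, and in 0 was every Brap LKO liver below, against 4.39%. These 10 were Ifi44, Ifih1, Ifit2, Ifit3b, Irf7, Oas1a, Oas1g, Rsad2, Trim30a and Usp18. By role, 2 belonged to the Ifit family, 2 to the Oas family and 2 to the Mx and other effectors. None were among the 6 GTPases or the 3 genes around Parp9. With 5.48% of all genes and 23.8% of the set separated, counts over so few genes do not show a difference between roles. With 4 livers against 4, the smallest two-sided p of the exact permutation test is 0.0286. Separated groups give this p by construction, so it adds nothing to the separation of these 10 genes.

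The promoters of several of these genes carry the letters of an ISRE. Those printed belong to 5 of the 10 genes with separated groups (Rsad2, Oas1a, Oas1g and Ifit3b, which held the letters, and Irf7, which did not), to Ifit3 as a near-identical neighbour and to Irgm1 as a GTPase gene with overlapping groups. The letters searched were GAAA, any 2 bases and GAAA again for the ISRE, and TTCNNNGAA for the GAS, on both strands, with overlapping matches counted, in the 250 bases before the start in the RefSeq promoter table (GRCm38.p6), which held 32 of the 42 genes. Each line gives the last 200 bases before the start, 5' to 3' on the gene's own strand, with ISRE matches in capitals.
Rsad2 (chr12:26456453-26456652, minus strand): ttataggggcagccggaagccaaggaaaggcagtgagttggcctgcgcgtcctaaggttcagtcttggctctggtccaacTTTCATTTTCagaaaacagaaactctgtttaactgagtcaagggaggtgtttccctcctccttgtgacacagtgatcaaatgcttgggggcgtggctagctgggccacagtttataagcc
Oas1a (chr5:120907526-120907725, minus strand): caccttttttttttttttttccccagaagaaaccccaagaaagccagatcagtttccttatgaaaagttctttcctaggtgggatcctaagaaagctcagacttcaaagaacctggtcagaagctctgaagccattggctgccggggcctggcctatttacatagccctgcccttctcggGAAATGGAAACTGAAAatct
Oas1g (chr5:120887614-120887813, minus strand): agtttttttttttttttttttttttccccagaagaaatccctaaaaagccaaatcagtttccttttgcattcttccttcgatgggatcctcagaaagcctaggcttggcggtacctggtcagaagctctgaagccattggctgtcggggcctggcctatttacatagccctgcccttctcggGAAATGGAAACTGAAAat
Ifit3 (chr19:34583329-34583528, plus strand): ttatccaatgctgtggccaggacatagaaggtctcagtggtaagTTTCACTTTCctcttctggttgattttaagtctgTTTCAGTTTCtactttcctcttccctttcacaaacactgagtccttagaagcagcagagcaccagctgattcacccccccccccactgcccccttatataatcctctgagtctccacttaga
Ifit3b (chr19:34607757-34607956, plus strand): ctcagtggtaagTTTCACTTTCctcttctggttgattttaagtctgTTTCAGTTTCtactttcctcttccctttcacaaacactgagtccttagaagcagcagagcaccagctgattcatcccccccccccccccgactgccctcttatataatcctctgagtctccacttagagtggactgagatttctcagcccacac
Irgm1 (chr11:48871421-48871620, minus strand): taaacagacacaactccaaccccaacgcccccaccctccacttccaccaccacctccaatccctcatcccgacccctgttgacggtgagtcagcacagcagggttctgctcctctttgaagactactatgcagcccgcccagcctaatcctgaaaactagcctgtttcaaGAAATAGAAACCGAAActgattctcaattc
Irf7 (chr7:141266425-141266624, minus strand): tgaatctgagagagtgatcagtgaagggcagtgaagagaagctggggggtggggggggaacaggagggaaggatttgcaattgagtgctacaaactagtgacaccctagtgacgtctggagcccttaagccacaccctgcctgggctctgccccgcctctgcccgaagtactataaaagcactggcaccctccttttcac
Oas1a and Oas1g each held 2 overlapping ISRE matches close to the start, the first base lying 20 bases before it in Oas1a and 18 in Oas1g. Ifit3 and Ifit3b each held 2 separate matches, beginning 156 and 122 bases before the start in Ifit3 and 188 and 154 in Ifit3b. Rsad2 held 1, at 120 bases. An ISRE match was present for 16 of the 32 genes (50%), against 3.46% of the 27025 genes with a promoter entry, and a GAS match for 7 (21.9%), against 8.13%. All 5 GTPases with an entry held an ISRE match, as did 3 of the 5 Oas genes and 3 of the 4 Ifit genes, against 0 of 3 sensors. Both Irgm1, whose groups overlapped, and Oas1a, whose groups did not, held 2 overlapping matches. Of the 9 genes with separated groups and a promoter entry, 5 held an ISRE match (Trim30a besides the 4 printed) and Ifi44, Ifih1, Ifit2 and Irf7 held none in this window, beside 11 of the 23 genes whose groups overlapped.

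Among the 5 sensors, Ifih1 was the 1 gene with an unadjusted p under 0.05 and the 1 whose groups did not overlap. Ifih1 encodes MDA5, a receptor for long double-stranded RNA, and it had the highest mean count of the sensors. Normalised counts of Ifih1 were 1667, 1725, 1721 and 2104 in Brap LKO replicates 1 to 4 and 1629, 946, 1138 and 1584 in Brap F/F replicates 1 to 4. The 4 Brap LKO livers were all higher, with Brap F/F replicates 1 and 4 close below the lowest of them and replicates 2 and 3 well below. The mean was 1804 ± 202 (SD, n = 4) in Brap LKO and 1324 ± 336 in Brap F/F, a log2 fold change of 0.48 ± 0.17 (SE) with an adjusted p of 0.236 by limma. Ddx58 (RIG-I, a receptor for RNA ends), Dhx58 (LGP2, a regulator of both receptors) and Eif2ak2 (PKR, a kinase that halts translation on double-stranded RNA) had log2 fold changes of 0.27, 0.40 and 0.24, with overlapping groups. Zbp1, a sensor of Z-form nucleic acid, had the widest spread of the set. In Brap LKO replicates 1 to 4, Zbp1 stood at 288, 306, 263 and 519 normalised counts, and in Brap F/F replicates 1 to 4 at 619, 79.3, 62.0 and 394. Brap F/F replicate 1 was the highest liver and Brap F/F replicate 3 the lowest, so the groups overlapped over the whole Brap LKO range, and the log2 fold change was 0.82 with a 95% confidence interval from -0.71 to 2.36. Zbp1 was chosen for description after its values were seen, as were Ifit2, Oas1g, Trim30a, Gbp2 and Igtp.

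Of the 4 transcription factors, Irf7, which drives further type I interferon expression, was the 1 gene with separated groups. Irf7 had 1684, 1764, 1767 and 2192 normalised counts in Brap LKO replicates 1 to 4, against 1486, 848, 712 and 1449 in Brap F/F replicates 1 to 4. All 4 Brap LKO livers lay above the Brap F/F range, with Brap LKO replicate 1 and Brap F/F replicate 1 the nearest pair. Means of 1852 ± 230.2 and 1124 ± 401 (SD, n = 4 each) gave a log2 fold change of 0.79 ± 0.23 (SE), with an adjusted p of 0.162 by limma. Stat2, a subunit of the factor that binds the ISRE, had the highest mean count of the role. For Stat2 the 4 Brap LKO livers had 2262, 2488, 2279 and 2883 normalised counts (replicates 1 to 4) and the 4 Brap F/F livers 2873, 1911, 1676 and 2658. Brap F/F replicate 1 nearly reached the highest Brap LKO liver and Brap F/F replicate 4 exceeded 3 of them, and the log2 fold change was 0.15 ± 0.17 (SE). Irf9, the DNA-binding partner of STAT2, and Irf1, a factor induced by interferon gamma, had log2 fold changes of 0.17 and 0.43 and overlapping groups.

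The ISG15 system was represented by Isg15, a ubiquitin-like protein attached to other proteins, and by Usp18, the protease that removes it and restrains interferon receptor signalling. The normalised counts of Usp18 in replicates 1 to 4 were 348, 358, 307 and 478 for Brap LKO and 276, 161, 162 and 293 for Brap F/F. The 2 groups did not overlap, with Brap F/F replicate 4 the closest control liver. This corresponded to a log2 fold change of 0.78 ± 0.23 (SE) and an adjusted p of 0.16 by limma, the means being 373 ± 73.9 and 223 ± 71.6 (SD, n = 4 each). Isg15 ranged from 61.0 to 279 normalised counts over the 8 livers, with Brap LKO replicate 4 highest and overlapping groups, and its log2 fold change was 0.59 ± 0.43 (SE).

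The Ifit genes encode tetratricopeptide proteins that bind foreign RNA, and the 4 described here lie in a cluster on chromosome 19. All 4 had an unadjusted p under 0.05 and a log2 fold change above 0, from 0.70 for Ifit3 to 1.11 for Ifit1, and 0 passed the adjusted threshold. Normalised counts of Ifit3b were 65.6, 72.2, 58.7 and 85.3 in Brap LKO replicates 1 to 4 and 42.2, 31.5, 29.4 and 57.9 in Brap F/F replicates 1 to 4. No Brap F/F liver reached a Brap LKO liver, but Brap F/F replicate 4 and Brap LKO replicate 3 lay within 1 normalised count of each other. The mean was 70.4 ± 11.3 (SD, n = 4) in Brap LKO and 40.3 ± 13.0 in Brap F/F, a log2 fold change of 0.83 ± 0.23 (SE) with an adjusted p of 0.14 by limma. Of the 50-base stretches of Ifit3b transcripts, 44.5% also occurred in Ifit3, and 51.2% of those of Ifit3 occurred in Ifit3b, so the split of reads between this pair is uncertain. Their promoters, printed above, share the same 2 ISRE matches. In Brap LKO replicates 1 to 4, Ifit1 stood at 389, 375, 394 and 601 normalised counts, and in Brap F/F replicates 1 to 4 at 393, 104, 143 and 267. Here Brap F/F replicate 1 lay inside the Brap LKO range while the other 3 control livers lay below it, and the log2 fold change was 1.11 ± 0.37 (SE). Ifit2 had 198, 141, 138 and 192 normalised counts in Brap LKO replicates 1 to 4, against 107, 63.1, 73.6 and 136 in Brap F/F replicates 1 to 4. Ifit2 had its highest value in Brap LKO replicate 1, and Brap F/F replicate 4 was just under the lowest Brap LKO liver.

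The Oas genes encode synthases that make oligoadenylates in response to double-stranded RNA and so switch on the nuclease RNase L. They held the largest fold changes of the whole set, in Oas1g and Oas1a, both of low abundance. For Oas1a the 4 Brap LKO livers had 98.4, 64.6, 88.0 and 118 normalised counts (replicates 1 to 4) and the 4 Brap F/F livers 46.7, 27.5, 14.7 and 53.0. Each Brap LKO liver was above each Brap F/F liver, and the control livers were themselves widely spread, with Brap F/F replicate 3 lowest. Means of 92.1 ± 22.1 and 35.5 ± 17.6 (SD, n = 4 each) gave a log2 fold change of 1.47 ± 0.38 (SE), with an adjusted p of 0.109 by limma. The normalised counts of Oas1g in replicates 1 to 4 were 39.2, 26.3, 29.3 and 58.2 for Brap LKO and 14.8, 3.05, 11.6 and 19.6 for Brap F/F. Brap F/F replicate 2 stood at 3 reads, at the floor of 3 reads, and the fitted log2 fold change was 1.79 with a pseudocount of 0.5 and 1.38 with a pseudocount of 5. The log2 fold change of Oas1g was 1.72 ± 0.49 (SE) at an adjusted p of 0.147 (limma). The split of reads between this pair is uncertain as well, since 57.6% of the 50-base stretches of Oas1a transcripts occurred in Oas1g and 54.1% of those of Oas1g occurred in Oas1a. Oasl1, an inhibitor of Irf7 translation, had the highest mean count of the role. Normalised counts of Oasl1 were 543, 660.1, 577 and 801 in Brap LKO replicates 1 to 4 and 599.7, 205, 213 and 509 in Brap F/F replicates 1 to 4. Brap F/F replicate 1 lay inside the Brap LKO range, replicate 4 just below it and replicates 2 and 3 far below, giving a log2 fold change of 0.90 ± 0.34 (SE). Oas2, Oas3 and Oasl2 had log2 fold changes of 0.59, 0.56 and 0.66 with overlapping groups, and Oas3 was highest in Brap F/F replicate 4.

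Rsad2 had the smallest p of all 42 genes. It encodes viperin, which makes a chain-terminating nucleotide that blocks viral RNA synthesis, and lies next to Cmpk2, a mitochondrial nucleotide kinase, on chromosome 12. In Brap LKO replicates 1 to 4, Rsad2 stood at 372, 397, 362 and 466 normalised counts, and in Brap F/F replicates 1 to 4 at 242, 118, 186 and 283. The lowest Brap LKO liver stood well above the highest Brap F/F liver, replicate 4. This corresponded to a log2 fold change of 1.01 ± 0.24 (SE) and an adjusted p of 0.0964 by limma, the means being 399 ± 46.9 and 207 ± 71.4 (SD, n = 4 each). The gene passed the threshold without Brap F/F replicate 4 (adjusted p = 0.0462, limma) and missed it on leaving out each of the other 7 livers (adjusted p from 0.11 to 0.24, limma). Rsad2 and Trim30a also passed with array weights and with the same total per liver. Cmpk2 had a log2 fold change of 0.82 ± 0.31 (SE), with overlapping groups. Trim30a had 281, 273, 247 and 368 normalised counts in Brap LKO replicates 1 to 4, against 208, 143, 149 and 216 in Brap F/F replicates 1 to 4. Trim30a, a tripartite motif protein, was separated between the groups, with Brap F/F replicate 4 the nearest control. The mean was 292 ± 52.7 (SD, n = 4) in Brap LKO and 179 ± 38.0 in Brap F/F, a log2 fold change of 0.71 ± 0.17 (SE) with an adjusted p of 0.103 by limma. Bst2, or tetherin, which holds budding virus at the cell surface, had the highest mean of the role and, per kilobase of exon, the highest level of the whole set at 3055 normalised counts. For Bst2 the 4 Brap LKO livers had 2998, 3339, 2875 and 2649 normalised counts (replicates 1 to 4) and the 4 Brap F/F livers 2278, 2596, 2262 and 3074. Its groups overlapped, Brap F/F replicate 4 was the second highest of all livers and Brap F/F replicates 1 and 3 were the lowest pair, a different order from most of the set. Mx1 and Mx2 belong to a family of dynamin-like antiviral GTPases. Mx1 is known to be defective in C57BL/6 mice, and whether Mx2 yields a working protein was not tested here. Mx1 and Mx2 had log2 fold changes of 1.01 and 0.54, and Samd9l, a restraint on cell growth, one of 0.56. The groups overlapped in all 3.

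**Figure D2:**
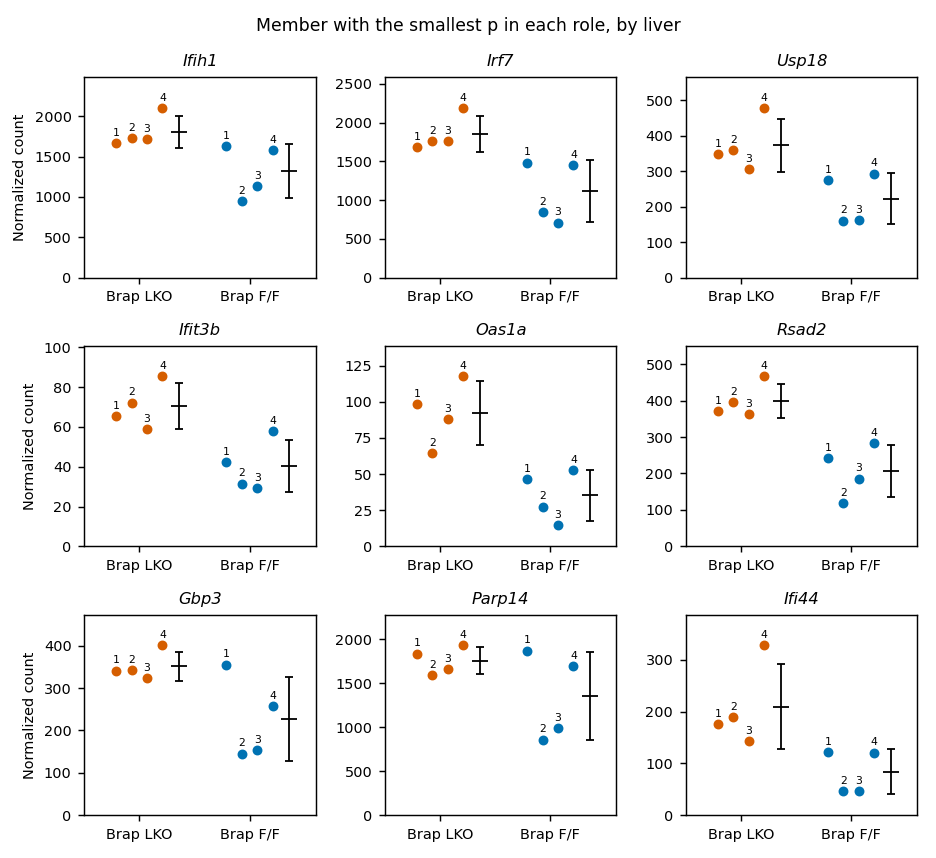
Normalised counts of the gene with the smallest p in each of the 9 roles, in Brap LKO (orange) and Brap F/F (blue) livers, each point being 1 liver marked with its replicate number and the black bar showing mean ± SD of 4 livers. Brap F/F replicates 2 and 3 are the lowest points in every panel, while Brap F/F replicates 1 and 4 lie just below the Brap LKO range for Ifih1 and Usp18 and inside it for Parp14.

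Of the 6 GTPases, 1 was higher in Brap LKO at an unadjusted p under 0.05 and 0 had separated groups, against 9.23% and 5.48% of all genes. The guanylate-binding proteins (Gbp) and immunity-related GTPases (Irg) attack the vacuoles of intracellular pathogens and are known as strong targets of interferon gamma. The normalised counts of Gbp3 in replicates 1 to 4 were 342, 342, 323 and 401 for Brap LKO and 356, 145, 153 and 257 for Brap F/F. Brap F/F replicate 1 fell inside the Brap LKO range, replicate 4 below it, and replicates 2 and 3 far below it. Means of 352 ± 34.2 and 228 ± 99.2 (SD, n = 4 each) gave a log2 fold change of 0.72 ± 0.26 (SE), with an adjusted p of 0.239 by limma (exact permutation p = 0.114). Iigp1, the immunity-related GTPase with the highest mean count of all 42 genes, had a control liver at the top and control livers at the bottom. Normalised counts of Iigp1 were 10412, 10990.1, 10817 and 15013 in Brap LKO replicates 1 to 4 and 15364, 5781, 6291 and 13350.2 in Brap F/F replicates 1 to 4. Brap F/F replicate 1 was highest and Brap F/F replicates 2 and 3 were lowest, and the log2 fold change of 0.33 ± 0.31 (SE) was within the spread. In Brap LKO replicates 1 to 4, Igtp stood at 857, 869, 786 and 1124 normalised counts, and in Brap F/F replicates 1 to 4 at 1668, 643, 586 and 843. Brap F/F replicate 1 was again highest by a wide margin, and the log2 fold change of 0.079 turned negative in edgeR (-0.026) and DESeq2 (-0.040). Gbp2 had 240.5, 134, 129 and 149.8 normalised counts in Brap LKO replicates 1 to 4, against 285, 134, 159 and 163 in Brap F/F replicates 1 to 4. Gbp2 was the 1 gene with a log2 fold change below 0 (-0.16 ± 0.26, SE) and the 1 in which a Brap LKO liver, replicate 3, was the lowest, and without Brap F/F replicate 1 it was 0.063. Gbp7 and Irgm1 had log2 fold changes of 0.34 and 0.21, with Brap F/F replicate 1 the highest liver in both.

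Parp9, Dtx3l and Parp14, an ADP-ribosyltransferase with its partner ubiquitin ligase and a larger relative, are neighbours on chromosome 16. The 3 genes gave 0 unadjusted p under 0.05, against 9.23% of all genes higher and 6.59% lower in Brap LKO. For Parp14 the 4 Brap LKO livers had 1834, 1591, 1661 and 1930.3 normalised counts (replicates 1 to 4) and the 4 Brap F/F livers 1868, 856, 992 and 1692. Brap F/F replicates 1 and 4 lay within the Brap LKO range and replicates 2 and 3 below it. This corresponded to a log2 fold change of 0.45 ± 0.23 (SE) and an adjusted p of 0.382 by limma (exact permutation p = 0.286), the means being 1754 ± 156 and 1352 ± 502 (SD, n = 4 each). The normalised counts of Dtx3l in replicates 1 to 4 were 2534, 2669, 2616 and 2806 for Brap LKO and 3197, 2044, 2014 and 2391 for Brap F/F. The 4 Brap LKO livers lay close together, inside a control range from 2014 to 3197. The log2 fold change was 0.16 ± 0.14 (SE) for Dtx3l and 0.036 ± 0.20 (SE) for Parp9, which turned to -0.011 in DESeq2. Dtx3l and Parp9 share 458 exon bases on opposite strands, and reads there cannot be told apart unless strand was used in counting.

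Of the remaining 5 genes, Ifi44, an interferon-induced cytosolic protein, had the smallest p. Normalised counts of Ifi44 were 177, 189, 143 and 329 in Brap LKO replicates 1 to 4 and 122, 46.8, 46.3 and 121 in Brap F/F replicates 1 to 4. All Brap LKO livers exceeded all Brap F/F livers, with Brap LKO replicate 4 far above the rest and Brap F/F replicates 2 and 3 nearly equal at the bottom. The mean was 209 ± 81.9 (SD, n = 4) in Brap LKO and 83.9 ± 43.2 in Brap F/F, a log2 fold change of 1.39 ± 0.39 (SE) with an adjusted p of 0.138 by limma. In Brap LKO replicates 1 to 4, Lgals3bp stood at 2753, 3179, 2665 and 3616 normalised counts, and in Brap F/F replicates 1 to 4 at 3360.1, 1956, 2160.2 and 3216. Lgals3bp, a secreted galectin-binding glycoprotein and the most abundant of the 5, had 2 control livers inside and 2 below the Brap LKO range, and its log2 fold change was 0.22 ± 0.18 (SE). Rtp4, a transporter chaperone, Xaf1, an antagonist of an apoptosis inhibitor, and Ifi35, a regulator of innate signalling, had log2 fold changes of 0.59, 0.52 and 0.15 and overlapping groups. Rtp4 had an unadjusted p of 0.0186 and an adjusted p of 0.226 (limma).

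**Figure D3:**
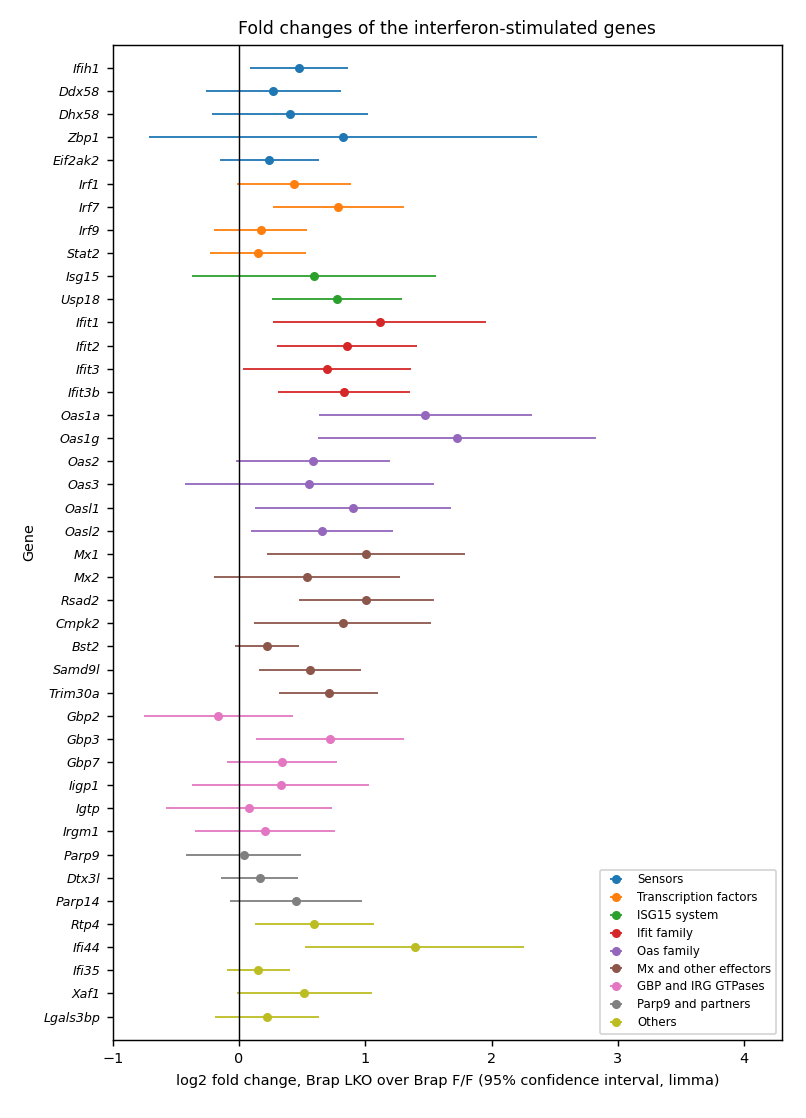
Log2 fold change of each of the 42 genes (Brap LKO over Brap F/F, limma) with its 95% confidence interval, coloured by role. The largest values belong to Oas1g (1.72), Oas1a (1.47) and Ifi44 (1.39), and Gbp2 (-0.16) is the 1 point left of 0.

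Levels of the 42 genes, compared per kilobase of exon, ranged from 6.80 normalised counts for Oas3 to 3055 for Bst2. The 10 genes with separated groups ranged in level from 10.8 for Oas1g to 394 for Irf7. After Bst2, the highest levels per kilobase were those of Iigp1 (1889) and Lgals3bp (1006), whose groups overlapped.

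The spread between livers was larger in the control group than in the knockout group for every gene of the set. The SD of log2(normalised count + 1) was larger over the 4 Brap F/F livers than over the 4 Brap LKO livers in 42 of the 42 genes, against 64% of all genes. Its median was 0.54 in Brap F/F and 0.23 in Brap LKO, where all genes had medians of 0.22 and 0.17. Zbp1 had the widest control spread, with an SD of 1.64 in Brap F/F and 0.44 in Brap LKO. The spread in Dtx3l was 0.31 against 0.062, and that in Eif2ak2, the closest to equal, 0.30 against 0.29. Averaged over the set, the deviation from the gene mean was 0.24, 0.22, 0.11 and 0.60 in Brap LKO replicates 1 to 4 and 0.21, -0.80, -0.71 and 0.14 in Brap F/F replicates 1 to 4. Brap LKO replicate 4 was the highest liver for 29 of the 42 genes, against 14.5% of all genes, and Brap F/F replicate 1 for 9, against 13.8%. In Ifih1, Dhx58, Zbp1, Irf7, Ifit1 and Iigp1, Brap LKO replicate 4 stood apart from the other 3 Brap LKO livers by Dixon's test at the 95% level. The genes led by Brap F/F replicate 1 were Dtx3l, Gbp2, Gbp7, Igtp, Iigp1, Irf9, Irgm1, Parp9 and Zbp1, and thus included 5 of the 6 GTPases.

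**Figure D4:**
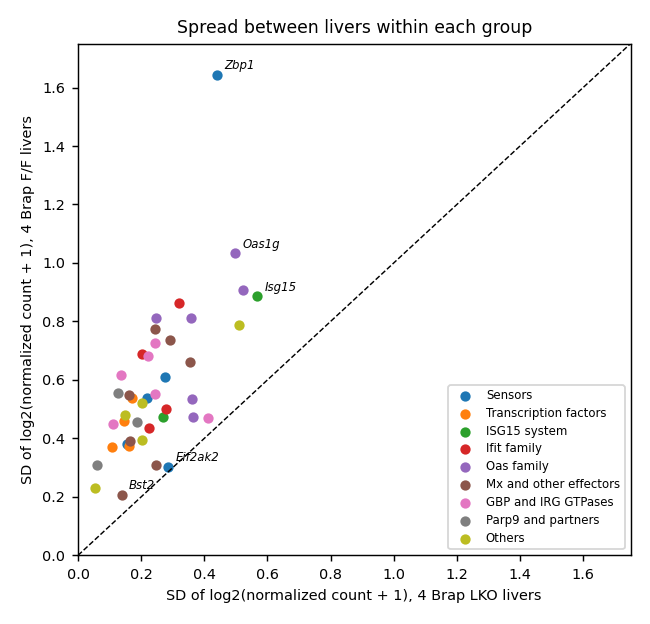
SD of log2(normalised count + 1) over the 4 Brap F/F livers (vertical) against that over the 4 Brap LKO livers (horizontal), 1 point per interferon-stimulated gene, with the line of equality dashed. All 42 points lie above the line, from Eif2ak2 (0.30 against 0.29) to Zbp1 (1.64 against 0.44).

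The rest of the interferon pathway was described from 121 genes in 5 lists, of which 100 were in the table and 98 were tested. Among the tested genes 3 rose in Brap LKO and 0 fell at an adjusted p under 0.05 (limma), against 0.664% and 0.104% of all genes. At an unadjusted p under 0.05, 36 were higher and 1 lower (Ifitm1, named after its values were seen), against 9.23% and 6.59% of all genes. Of 21 interferon genes 1 was found by symbol in the table, interferon gamma (Ifng), so the levels of the others cannot be judged here. Ifng had 0 reads in every Brap LKO liver and 3, 3, 1 and 3 reads in Brap F/F replicates 1 to 4. It was at or under the floor of 3 reads in every liver and was not tested. Among the 10 genes for receptors and signalling, 3 had an unadjusted p under 0.05 and 0 passed the adjusted threshold. Ifngr1 had 588, 559.8, 526 and 553 normalised counts in Brap LKO replicates 1 to 4, against 483, 459.7, 486 and 474 in Brap F/F replicates 1 to 4. Ifngr1, a chain of the interferon gamma receptor, was separated between the groups, with a log2 fold change of 0.23 ± 0.067 (SE). Il10rb, a receptor chain shared with interferon lambda, and the kinase Tyk2 had log2 fold changes of 0.29 and 0.23 with separated groups, whereas Jak1, the most abundant of the list, stood at 0.06 with overlapping groups.

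Of 21 further nucleic acid sensing genes 4 had an unadjusted p under 0.05 and 0 passed the adjusted threshold. For Sting1 the 4 Brap LKO livers had 77.4, 66.3, 74.9 and 77.0 normalised counts (replicates 1 to 4) and the 4 Brap F/F livers 42.2, 33.6, 48.4 and 58.9. Sting1, the adaptor of cytosolic DNA sensing, was separated between the groups, with a log2 fold change of 0.71 ± 0.18 (SE) at an adjusted p of 0.115 (limma). Irf8, a myeloid transcription factor, and Tlr3, a receptor for double-stranded RNA, had log2 fold changes of 0.28 and 0.44 with overlapping groups, and Mavs, the adaptor of the RNA sensors, 0.038. Of the 7 negative regulators 0 had an unadjusted p under 0.05, and Irf2, a repressor with the highest mean count among them, had a log2 fold change of -0.082.

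The 3 pathway genes that rose were all interferon-induced genes outside the 42. The normalised counts of Slfn8 in replicates 1 to 4 were 154, 144, 119 and 159 for Brap LKO and 62.7, 33.6, 32.6 and 53.0 for Brap F/F. Slfn8, a Schlafen family protein, was separated between the groups by a wide margin. Means of 144 ± 17.6 and 45.5 ± 14.8 (SD, n = 4 each) gave a log2 fold change of 1.69 ± 0.23 (SE), with an adjusted p of 0.0177 by limma. Its limma call was lost in 3 leave-outs, with an adjusted p of 0.0726 without Brap LKO replicate 1, 0.0631 without Brap LKO replicate 4 and 0.0524 without replicate 2 of Brap F/F. Normalised counts of Ifi27 were 3308, 3599, 4161 and 3166 in Brap LKO replicates 1 to 4 and 2150.4, 1244, 1293 and 2085 in Brap F/F replicates 1 to 4. Ifi27, a small interferon-induced membrane protein, was separated between the groups. This corresponded to a log2 fold change of 1.11 ± 0.19 (SE) and an adjusted p of 0.0417 by limma, the means being 3559 ± 440.3 and 1693 ± 491 (SD, n = 4 each). In Brap LKO replicates 1 to 4, Ly6e stood at 12827, 12989.8, 12466 and 16093 normalised counts, and in Brap F/F replicates 1 to 4 at 6817, 4445, 3575 and 8218. Ly6e, a GPI-anchored surface protein that restricts coronavirus entry, was likewise separated, with Brap F/F replicates 2 and 3 lowest. The mean was 13594 ± 1681 (SD, n = 4) in Brap LKO and 5764 ± 2134 in Brap F/F, a log2 fold change of 1.31 ± 0.24 (SE) with an adjusted p of 0.048 by limma. The calls of Ifi27 and Ly6e were lost on leaving out any of 6 and 7 of the 8 livers respectively (adjusted p up to 0.128 and 0.149, limma): Ifi27 kept its call without Brap F/F replicate 1 or 4, and Ly6e without Brap F/F replicate 4. Ifi27 also missed the threshold without the mean-variance trend (adjusted p = 0.0716, limma) and with the run of animal numbers in the labels as a covariate (0.0894). Ly6e missed it in 6 other settings, edgeR among them (adjusted p = 0.0554), with adjusted p from 0.0509 to 0.107.

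Markers of other cell types were measured in the same livers, and they differed between the groups for some types. Hepatocyte markers were abundant in every liver, Alb among them at 1438250.3 to 3058028 normalised counts. Of the 8 hepatocyte genes, 6 had a log2 fold change below 0 and 2 above 0 (median -0.34). At an unadjusted p under 0.05 (limma) 1 was lower and 0 were higher, and 0 passed the threshold. The mean deviation of the 8 genes was highest in Brap F/F replicates 2 (0.38) and 3 (0.21), the livers lowest in the interferon-stimulated genes. Not every gene of the list followed this, Apoa1 being lowest in Brap F/F replicate 3. Of the 9 monocyte and recruited macrophage markers, all 9 had a log2 fold change above 0 (median 1.05), 7 were higher at an unadjusted p under 0.05 and 3 rose (Cx3cr1, Gpnmb and Itgax). Their summed count was 1522 to 2356 in Brap LKO and 887 to 1465 in Brap F/F, and the mean deviation in Brap F/F replicates 1 to 4 was -0.63, -0.76, -1.13 and -0.13. Of the 8 Kupffer cell markers, 6 had a log2 fold change above 0 and 2 below 0 (median 0.14). Among them 0 passed the threshold and 0 had an unadjusted p under 0.05 (limma). Their summed counts overlapped (4834 to 8941 in Brap LKO and 5217 to 7633 in Brap F/F).

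Among the other lists, the threshold was passed by 1 of 8 stellate cell and fibroblast markers (Pdgfrb) and 1 of 6 cholangiocyte markers (Cftr), both higher in Brap LKO. At an unadjusted p under 0.05, 5 of the 8 stellate cell markers were higher, with a median log2 fold change of 0.71 and summed counts of 7466 to 11747 in Brap LKO and 4903 to 8619.9 in Brap F/F. So were 5 of the 6 cholangiocyte markers, with a median of 0.95 and summed counts of 1349 to 3015 in Brap LKO and 718 to 1485 in Brap F/F. The threshold was passed by 0 of the tested markers of plasmacytoid dendritic cells (3), T and NK cells (10), B cells (5), neutrophils (2), sinusoidal endothelium (8) and red blood cells (5), with 1, 1, 2, 0, 0 and 0 at an unadjusted p under 0.05. Ly6g, which defines neutrophils, had at most 1 read in any liver. Siglech, which defines plasmacytoid dendritic cells, had 13.5 to 24.6 normalised counts in Brap LKO and 3.05 to 12.6 in Brap F/F. Its groups were separated, with a log2 fold change of 1.20 and an adjusted p of 0.203 (limma), and Brap F/F replicate 2 stood at 3 reads. Siglech was the 1 marker of its list with an unadjusted p under 0.05, and all 3 tested had a log2 fold change above 0 (median 1.20). Of the 10 tested T and NK cell markers, 9 had a log2 fold change above 0 and 1 below 0 (median 0.60), with 0 separated. The summed T and NK cell count was 161 to 276 in Brap LKO and 117 to 202 in Brap F/F. All 5 B cell markers lay above 0 (median 0.59), and 2 of them were separated between the groups. The 2 neutrophil and 8 sinusoidal endothelial markers also all lay above 0 (medians 0.33 and 0.16), against 1 of the 5 red blood cell markers (median -0.06). The part of any of these cell types in the values of the interferon-stimulated genes was not tested.

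**Figure D5:**
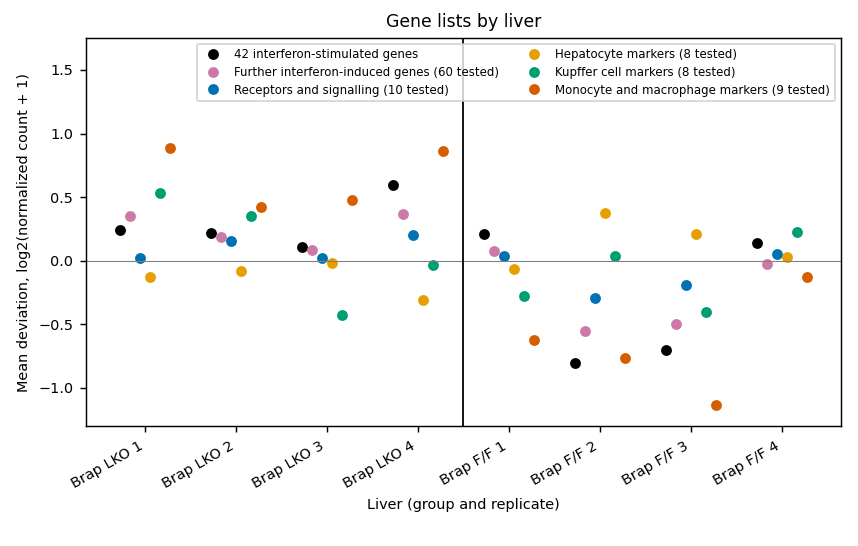
Mean deviation of log2(normalised count + 1) from the gene mean, by liver, for the 42 interferon-stimulated genes and for pathway and cell type lists, 1 point per list and liver. The interferon-stimulated genes are lowest in Brap F/F replicates 2 (-0.80) and 3 (-0.71), where the hepatocyte markers are highest (0.38 and 0.21).

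The libraries held 26280884 to 33313914 reads on genes, so counting error was small for all but the rarest genes named. Brap itself was at 4042, 4203, 4065 and 3641 normalised counts in Brap LKO replicates 1 to 4 and at 4410, 4235, 3994 and 4106 in Brap F/F replicates 1 to 4. Cre removes only the floxed exons, so a count over the whole gene does not check the labels. By the animal numbers in the labels, 2 runs of numbers could be told apart, and the lower run held 3 knockout livers but only 1 control liver. With this run as a covariate, 0 interferon-stimulated genes passed the threshold and 12 were higher at an unadjusted p under 0.05 (against 0.945% and 8.21% of all genes). The median log2 fold change was then 0.46, but the 2 runs differed. In the lower run the mean deviation of the set was 0.24, 0.22 and 0.11 in Brap LKO replicates 1 to 3 and 0.21 in Brap F/F replicate 1. In the higher run it was 0.60 in Brap LKO replicate 4 and -0.80, -0.71 and 0.14 in Brap F/F replicates 2 to 4. The covariate fit thus rests on 1 control liver in the lower run and 1 knockout liver in the higher run. Brap LKO replicate 4 and replicates 2, 3 and 4 of Brap F/F carried the higher numbers. Brap F/F replicates 2 and 3, the lowest pair for most of the set, carried consecutive animal numbers. Over all tested genes they were also the most alike of the control livers (Pearson correlation of log2 values 0.990, against 0.974 to 0.986 for the other control pairs). Whether this bears on their low values was not tested. With every library scaled to the same total, the median log2 fold change of all genes moved by 0.16, and that of the 42 genes above it was 0.57 with either scaling.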

How the data were processed

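Total RNA of 8 mouse livers was sequenced single-end in 50-base reads from mRNA libraries, and the sources name FastQC, STAR 2.6.0c, the mm10 genome and DESeq2. The counting tool, the annotation and the use of strand are not given in the sources used here. The authors deposited a signal table of read counts per gene divided by a size factor per liver, called normalised counts here. A second deposited table, holding the authors' own comparison (log2 fold changes, p-values and adjusted p-values), was not used. All columns of the first table belonged to labelled samples, and 0 were left out.

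The smallest step in each column returned whole reads for 100% of values (tolerance 0.01 reads), 26280884 to 33313914 per liver. A count of 3 reads was taken as the floor, which covers counting error only. The main test used the deposited normalised values, although reads could be recovered from them. It was limma 3.58.1 (R 4.3.3) with a mean-variance trend on log2(normalised count + 1), for 15352 genes with a mean of at least 5. Benjamini-Hochberg adjustment ran over all of them, with a threshold of 0.05. The calls depend on this choice: limma called 0 of the 42 genes and 118 of all genes, and DESeq2 on the recovered reads called 6 and 607. A fold change is thus on the log2(value + 1) scale, which understates the change of low genes. Single values were compared by two-sided exact permutation over 70 arrangements. edgeR 4.0.16 (quasi-likelihood) and DESeq2 1.42.0 on the recovered reads were among 22 alternatives. The scripts were tested on simulated data.

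The 42 genes, the 9 roles, the 5 pathway lists and the 11 marker lists were chosen with earlier results of these data known. Values by liver are given for the gene with the smallest p and the gene with the highest mean in each role. In the pathway lists, up to 3 genes by smallest p with an unadjusted p under 0.05 are named, and the gene with the highest mean. Marker genes named singly, and others outside this rule, were chosen after their values were seen. Shared sequence was counted as 50-base stretches of the annotated transcripts (GENCODE, GRCm38) that also occur in another gene.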

Additional observations from a re-analysis of the deposited data

Results flagged for a closer look

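Brap LKO replicate 4 stood apart from the other 3 Brap LKO livers, on the high side, for 6 of the 42 interferon-stimulated genes and for Ly6e. The distance to the nearest other liver of its group was above the 95% critical value of Dixon's test for 4 samples. Normalised counts in this liver were 2104 for Ifih1, 581 for Dhx58, 519 for Zbp1, 2192 for Irf7, 601 for Ifit1, 15013 for Iigp1 and 16093 for Ly6e. The nearest other Brap LKO liver had 1725, 409, 306, 1767, 394, 10990.1 and 12989.8. In all, 108 groups of 4 livers were examined, where chance gives about 1 in 20, or 5.4, and 7 were found, so the number itself is close to that of chance. All 7 lay in the same liver, and the genes are not independent of one another. The direction of the group difference for Ifih1, Irf7 and Ifit1 was the same without this liver.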

How the results depend on the processing

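The count of interferon-stimulated genes past the threshold (0) was 6 with DESeq2, 2 with array weights, 2 with the same total per liver (Rsad2 and Trim30a both times), 1 at an adjusted p under 0.1 and 19 at an unadjusted p under 0.05. It was 0 to 1 on leaving out 1 liver. Their median log2 fold change was 0.34 to 0.72 on leaving out 1 liver. The count of pathway genes (3) was 11 with DESeq2, 1 with the run of animal numbers as a covariate, 10 with the same total per liver and 0 to 4 on leaving out 1 liver. Over all genes the count (118) was 607 with DESeq2, 224 with array weights, 78 with quantile normalisation, 479 with the same total per liver, 347 at an adjusted p under 0.1, 2429 at an unadjusted p under 0.05 and 18 to 232 on leaving out 1 liver. Of all calls, 86.4% were higher in Brap LKO, against 73.8% with DESeq2, 95.8% with the same total per liver and 61.1% to 87.5% on leaving out 1 liver.

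The sign turned for Igtp with DESeq2 (-0.040), edgeR (-0.026) and this covariate (-0.14), and on leaving out 1 liver (-0.10 to 0.40). It turned for Parp9 with DESeq2 (-0.011) and this covariate (-0.082), and on leaving out 1 liver (-0.087 to 0.24). Irf2 turned with the same total per liver (0.076). Leaving out 1 liver gave -0.36 to 0.063 for Gbp2 and -0.024 to 0.11 for Mavs. The cause was not tested.

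Replicate numbers are shared between the groups, and nothing in the labels says that they pair the livers. Within each group they follow the order of the animal numbers. Under replicate numbers 2 and 3 the knockout liver belonged to the lower run of animal numbers and the control liver to the higher run. Same-number correlations of the deviations ran from -0.129 to 0.292, and 2 of 4 were above 0.1. Of 8 livers, 5 correlated best with their own number, so these values do not settle whether the numbers pair the livers. With the replicate number as a block, 0 of the 42 genes passed the threshold, 24 were higher at an unadjusted p under 0.05 (against 0.619% and 9.73% of all genes), and Ifi27 lost its call (adjusted p = 0.0771, limma).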
